A study of Mus musculus with 18 samples.

Results

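The 37 genes described here carry out, sense or report stress in the endoplasmic reticulum (ER) or a shortage of amino acids, and they were taken by symbol from the 55491 rows of the gene count table. Of 38 rows that carried one of these symbols, 1 was a second row for *Ddit3* with 0 counts in all 18 libraries, and it was left out. The 37 genes were read in 5 lists, which were 7 sensors and transcription factors, 9 ER chaperones and folding enzymes, 11 IRE1 and ATF6 target genes, 4 ATF4 and CHOP feedback genes and 6 ATF4 amino acid genes. All 37 passed the filter on low counts, so no member was lost before testing.

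RNA-seq was performed on tail tendon fibroblasts (TFs) kept for 4 days in 20% O2 or 1% O2. Ctrl TFs came from Cre-negative mice, which the labels call wild-type although the study's Cre-negative Ctrl mice carry floxed *Hif1a* alleles (its Ctrl mice are given as Cre-negative flox/flox or as flox/WT with ScxCre), and cKO TFs came from *Hif1a* flox/flox mice with Cre driven by *Scx*, a transcription factor of tendon cells, which the labels call *Hif1a* knockout. The remaining arm consisted of Ctrl TFs given Cre gesicles, which are cell-derived vesicles that carry Cre protein, as another route to *Hif1a* knockdown in culture. Each of the 6 groups held 3 libraries, from male and female mice of 4 to 6 months on a mixed C57BL6J/129S1 background, and the labels give 10% serum for the cultures where the study's methods give 1%. The cells given gesicles were Ctrl TFs, and how the gesicles were applied is not stated in the sources used here. Because *Scx* drives Cre in tendon cells, other cells of a culture may keep the gene.

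Library totals ran from 6857558 counts, in 1 cKO library in 1% O2, to 51806453 counts, so that 3 counts corresponded to between 0.0592 and 0.427 CPM, the unit for counts scaled to a common library total, here after TMM normalization. *Hif1a*, the targeted gene, had 11501 to 17692 counts in the Ctrl libraries and 11430 to 20149 in the gesicle libraries. In the cKO libraries it had 3007 to 20137 counts, with the lowest value in the shallowest library. Counts over the whole gene do not show whether the floxed part was present, so these values do not check the deletion in cKO or gesicle TFs. The Cre transgene had 0 to 5 counts in cKO libraries and 0 in the others. All 8 tendon fibroblast markers were read in every group, with a summed level of 4252 to 14352 CPM. *Ptprc*, the pan-leukocyte gene, had at most 5 counts and *Pax7*, the satellite cell gene, had 0. Other markers from the lists of these cell types were read. *Lyz2* of the macrophage and leukocyte list lay at 8.57 to 22.2 CPM, and *Csf1r* and *Cd68* reached 102 and 90 counts. Of the skeletal muscle list, *Des* lay at 1.72 to 7.46 and *Acta1* at 9.32 to 41.8 CPM. In these bulk cultures, fewer cells of a type and less RNA per cell cannot be told apart.

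Secreted proteins such as collagen are folded in the ER, and a surplus of unfolded protein there sets off the unfolded protein response. Its sensors are IRE1, which splices the mRNA of the transcription factor XBP1, ATF6, which is cut to release a transcription factor, and PERK, a kinase that slows translation and favours ATF4. XBP1 and ATF6 raise chaperones and the machinery that removes misfolded protein, while ATF4 raises amino acid synthesis and import and the factor CHOP. Low O2 is a known trigger of this response in many cell types, since disulfide formation in the ER uses O2. Gene counts do not separate spliced from unspliced *Xbp1* and do not show cleavage of ATF6 or phosphorylation of PERK.

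The promoters of the ER genes carry a recognizable sequence, and it is shown first because the genes are grouped by it below. The ER stress element consists of CCAAT and CCACG with 9 bases between them and is bound by NF-Y together with ATF6 or XBP1. RefSeq promoter windows (GRCm38.p6, from 250 bases before to 50 bases after the start site) were found for 34 of the 37 genes and searched on both strands. The element lay in 9 of 35 member windows (25.7%), against 0.119% of all 32851 windows. Here each copy is written 5′ to 3′ on the strand of the element, and the capitals mark the fixed bases.
Hspa5, chr2:34772025-34772043, plus strand: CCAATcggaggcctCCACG
Hsp90b1, chr10:86705638-86705656, minus strand: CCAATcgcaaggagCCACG
Hsp90b1, chr10:86705533-86705551, plus strand: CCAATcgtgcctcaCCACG
Calr, chr8:84847075-84847093, plus strand: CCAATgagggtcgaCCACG
Canx, chr11:50325800-50325818, minus strand: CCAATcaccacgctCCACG
Pdia6, chr12:17266491-17266509, plus strand: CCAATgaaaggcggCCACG
Creld2, chr15:88819520-88819538, minus strand: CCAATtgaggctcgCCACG
Derl3, chr10:75893242-75893260, minus strand: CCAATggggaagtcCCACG
Dnajc3, chr14:118937827-118937845, plus strand: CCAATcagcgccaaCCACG
Syvn1, chr19:6046532-6046550, plus strand: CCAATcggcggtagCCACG
*Hsp90b1* alone had 2 copies, in opposite orientation, and the 9 bases between the fixed parts differed among all 10 copies. A related form, ER stress element II, has ATTGG and CCACG with 1 base between them. It was found in *Dnajb11*, downstream of the start site, and in *Herpud1*, upstream of it, which is 5.71% of member windows against 0.0365% of all windows.

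The second sequence of this kind is the C/EBP-ATF core, TGATGCAA, which ATF4 binds with a C/EBP partner. It was found in *Atf3*, *Chac1*, *Herpud1* and *Slc7a11*, in 11.4% of member windows against 0.895% of all windows. Only this exact spelling was searched, so a window without a match is not shown to lack an ATF4 site. The 250 bases upstream of the start site are shown for 4 genes whose values recur below, on the strand of the gene, with capitals for both forms of the ER stress element and for the C/EBP-ATF core.
Hspa5, chr2:34771840-34772089, plus strand: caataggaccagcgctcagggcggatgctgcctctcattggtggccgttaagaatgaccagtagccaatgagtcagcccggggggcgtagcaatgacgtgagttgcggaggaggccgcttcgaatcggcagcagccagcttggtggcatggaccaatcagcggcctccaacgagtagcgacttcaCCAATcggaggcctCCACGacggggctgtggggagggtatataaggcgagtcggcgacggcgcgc
Hsp90b1, chr10:86705445-86705694, minus strand: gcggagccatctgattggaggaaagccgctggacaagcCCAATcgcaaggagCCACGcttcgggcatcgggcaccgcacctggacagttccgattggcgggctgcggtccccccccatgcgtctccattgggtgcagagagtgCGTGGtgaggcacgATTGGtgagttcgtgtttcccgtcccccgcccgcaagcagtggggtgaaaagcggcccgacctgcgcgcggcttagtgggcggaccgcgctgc
Herpud1, chr8:94386179-94386428, plus strand: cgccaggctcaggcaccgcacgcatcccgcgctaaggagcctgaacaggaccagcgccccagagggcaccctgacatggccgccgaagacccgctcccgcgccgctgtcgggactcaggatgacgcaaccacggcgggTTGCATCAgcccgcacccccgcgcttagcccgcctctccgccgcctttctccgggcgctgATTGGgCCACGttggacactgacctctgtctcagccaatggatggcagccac
Slc7a11, chr3:50443614-50443863, minus strand: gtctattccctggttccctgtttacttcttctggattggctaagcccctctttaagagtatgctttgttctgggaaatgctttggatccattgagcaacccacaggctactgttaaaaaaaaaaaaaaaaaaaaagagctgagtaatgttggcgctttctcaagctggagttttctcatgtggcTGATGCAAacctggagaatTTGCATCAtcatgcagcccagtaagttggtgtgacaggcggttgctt
*Herpud1* was the only member with an ER stress element of either form and a C/EBP-ATF core, and *Slc7a11* was the only one with 2 C/EBP-ATF cores. The XBP1 core TGACGTGG was in 0 member windows and in 0.676% of all windows. The hypoxia response core ACGTG, which HIF binds and which also lies inside TGACGTGG and can overlap the CCACG of an ER stress element, was in 34.3% of member windows and 19.6% of all windows. These matches describe letters in the windows only, and *Atf6*, *Hyou1* and *Manf* had no window.

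**Figure D1:**
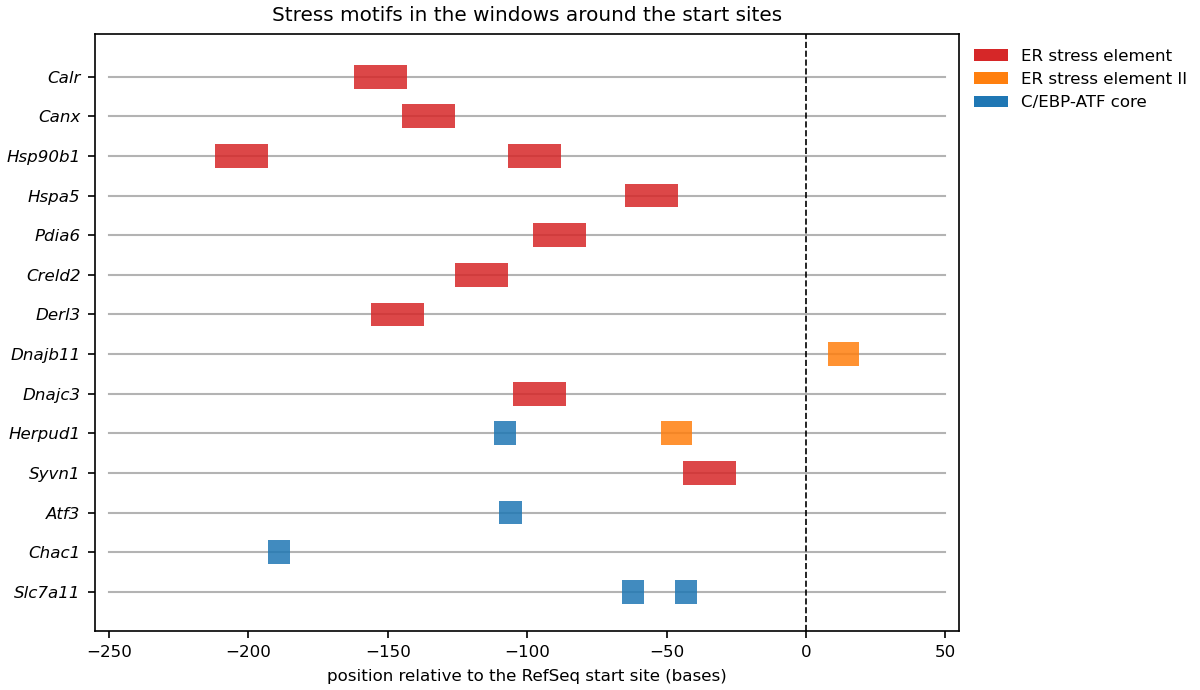
Positions of motif matches upstream and downstream of the RefSeq start site (x axis, bases from the start site) for the 14 members (rows) with an ER stress element of either form or a C/EBP-ATF core, with coloured bars for the motifs to scale. The ER stress element lies upstream of the start site in all 9 genes that hold it, and the C/EBP-ATF core appears in 4 genes.

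Levels differed widely between members before any comparison. Per kilobase of exon, in CPM per kb, *Serpinh1*, the collagen chaperone HSP47, was highest in Ctrl TFs in 20% O2 at 1138, followed by *Pdia3*, a disulfide isomerase, at 567, and *Hspa5*, the ER chaperone BiP, at 430. The amino acid genes with the highest levels were *Phgdh*, which starts serine synthesis, at 137, and *Asns*, asparagine synthetase, at 108. At the bottom lay *Slc7a11*, the cystine transporter, at 1.12, and *Derl3*, a channel component of ER-associated degradation, at 0.216. The 9 chaperones together took 1.16% ± 0.00396 (SD, n = 3) of all counts in Ctrl TFs in 20% O2, and the 6 amino acid genes took 0.0991% ± 0.009.

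The comparison of 1% with 20% O2 asks which members respond to low O2, in cells with *Hif1a*, after *Scx*-Cre and after gesicles. In Ctrl TFs, 0 of 37 members were called at an adjusted p under 0.05 and a fold of at least 1.5 (edgeR quasi-likelihood test, Benjamini-Hochberg adjustment over 15850 genes), against 1.88% of all genes tested. Calls below are those of edgeR unless another tool is named. DESeq2 and limma voom called more genes than edgeR for O2 in each arm and for cKO against Ctrl TFs, as given at the end. The shares of all genes beside edgeR calls therefore do not apply to calls of those tools. In cKO TFs, 6 members were called, all higher in 1% O2, against 2.1% of all genes. After gesicles, 9 were called higher and 1 lower, against 2.41% of all genes. For Ctrl TFs, 14 members had an unadjusted p under 0.05, against 2546 of 15850 genes, DESeq2 called 1 and limma voom called 5. The median log2 difference over the members was 0.10 in Ctrl, 0.33 in cKO and 0.26 in gesicle TFs, where that over all genes was 0.00, -0.03 and -0.02.

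Of the members called higher, cKO and gesicle TFs shared 5, namely *Calr*, *Chac1*, *Creld2*, *Herpud1* and *Hsp90b1*, which is 83.3% of the 6 and 55.6% of the 9. Over all genes, 222 were called higher in cKO and 266 in gesicle TFs, and how many of these are shared was not counted. The overlap is therefore not shown to be particular to the members. All 3 libraries in 1% O2 lay above all 3 in 20% O2 for 11 members in Ctrl TFs, against 16.6% of all genes, for 15 in cKO TFs, against 10.5%, and for 15 in gesicle TFs, against 13%. Between lists, the medians differed in the same direction in the 3 arms, with the ER lists above the amino acid genes. The ER chaperones had a median log2 difference of 0.35 in Ctrl, 0.57 in cKO and 0.51 in gesicle TFs, and the IRE1 and ATF6 targets had 0.16, 0.37 and 0.49. The ATF4 amino acid genes had the lowest medians, -0.22, -0.09 and -0.21, and the sensors and transcription factors had -0.21, 0.18 and -0.03. The ATF4 and CHOP feedback genes had -0.10, 0.52 and 0.27.

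**Figure D2:**
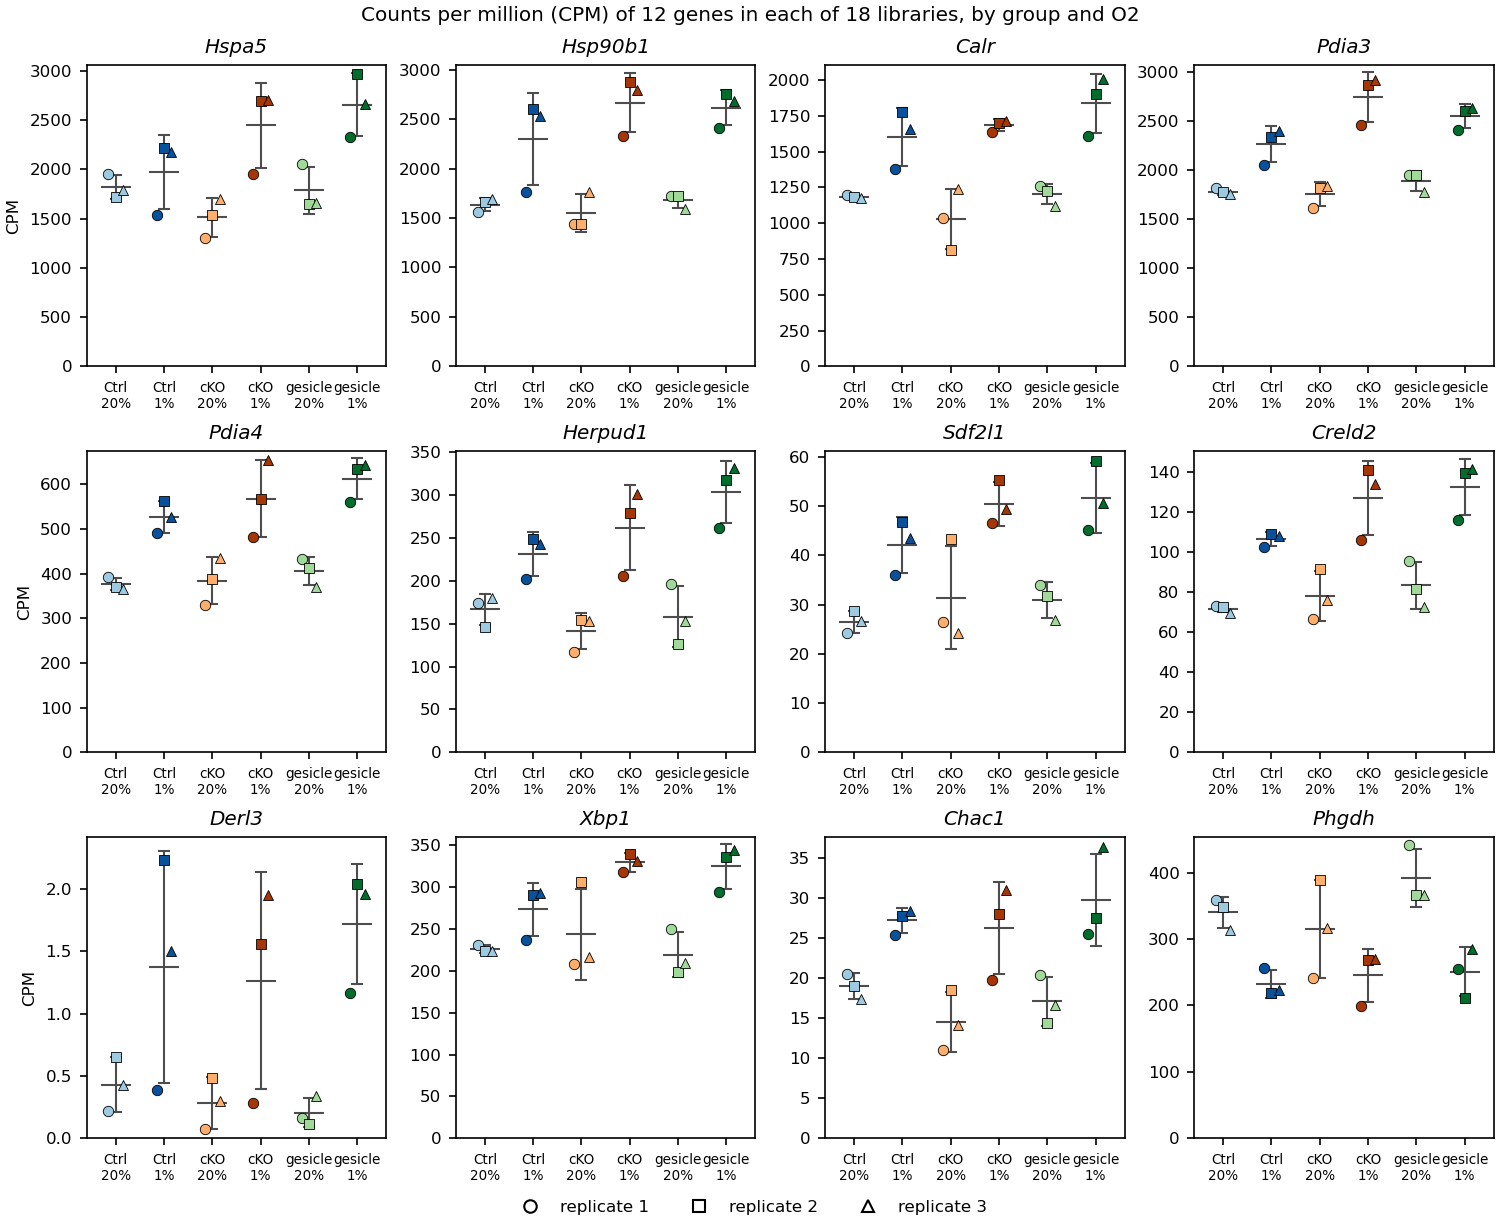
Levels of selected members (y axis, CPM from 0) in each library of the 3 arms in 20% and 1% O2, with points for libraries, marker shapes for replicates 1 to 3 and bars for the mean ± SD of 3 libraries. Hsp90b1, Herpud1 and Creld2 lie higher in 1% O2 in every arm, and Phgdh lies lower in Ctrl and gesicle TFs.

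Among the chaperones, *Hsp90b1*, the ER form of HSP90 known as GRP94, had the largest difference in cKO and gesicle TFs. Its level in Ctrl TFs was 1558, 1664 and 1689 CPM in 20% O2 and 1766, 2602 and 2533 CPM in 1% O2, a log2 difference of 0.50 ± 0.16 (SE, adjusted p = 0.161). In cKO TFs it was 1436, 1441 and 1769 CPM in 20% O2 and 2326, 2876 and 2800.1 CPM in 1% O2, a rise of 0.79 ± 0.16 (SE, adjusted p = 0.0294). Gesicle TFs had 1721, 1725 and 1589 CPM in 20% O2 and 2413, 2756 and 2684 CPM in 1% O2, a rise of 0.64 ± 0.14 (SE, adjusted p = 0.0248). The groups did not overlap in any arm, and replicate 1 was lowest in 1% O2 throughout. *Calr*, which encodes the lectin chaperone calreticulin, was at 1038, 815 and 1237 CPM in 20% O2 and 1640.3, 1703 and 1713 CPM in 1% O2 in cKO TFs, a rise of 0.72 ± 0.15 (SE, adjusted p = 0.0315). After gesicles *Calr* rose by 0.61 (adjusted p = 0.027) and in Ctrl TFs the difference was 0.44 (adjusted p = 0.175). Its membrane-bound relative *Canx*, calnexin, whose promoter also holds an ER stress element, differed by only -0.13, -0.02 and 0.01 in Ctrl, cKO and gesicle TFs (adjusted p from 0.726 to 0.977).

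*Hspa5*, the chaperone BiP that holds the 3 sensors inactive, was at 1952, 1722 and 1787 CPM in 20% O2 and 1537, 2212 and 2170.4 CPM in 1% O2 in Ctrl TFs. The lowest Ctrl library in 1% O2 lay under all 3 in 20% O2, so the groups overlapped, and the log2 difference was 0.12 ± 0.18 (SE, adjusted p = 0.796). In cKO TFs *Hspa5* was at 1301, 1538 and 1699 CPM in 20% O2 and 1948, 2692 and 2699 CPM in 1% O2. Those groups did not overlap, and the difference was 0.70 ± 0.18 (SE, adjusted p = 0.0638), short of the threshold. Gesicle TFs had 2055, 1645 and 1654 CPM in 20% O2 and 2328, 2966 and 2664 CPM in 1% O2, again without overlap, at 0.57 ± 0.17 (SE, adjusted p = 0.0829). By edgeR, BiP mRNA was thus called in no arm, but in cKO TFs both DESeq2 (adjusted p = 0.00606) and limma voom (adjusted p = 0.00175) called it higher, and in gesicle TFs limma voom did (adjusted p = 0.025).

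The disulfide isomerases *Pdia3*, *Pdia4* and *Pdia6* had positive differences in the 3 arms. *Pdia3*, also called ERp57, which works with calreticulin and calnexin, was at 1611, 1815 and 1842 CPM in 20% O2 and 2457, 2869 and 2916 CPM in 1% O2 in cKO TFs, a rise of 0.65 ± 0.12 (SE, adjusted p = 0.0197). In gesicle TFs its difference of 0.43 had an adjusted p of 0.0364 but lay under 1.5-fold. *Pdia4* was called after gesicles, at 434, 413 and 371 CPM in 20% O2 and 559.6, 635 and 643 CPM in 1% O2, a rise of 0.59 ± 0.13 (SE, adjusted p = 0.0175). In cKO TFs *Pdia4* had 0.57 (adjusted p = 0.0539), and *Pdia6* had 0.41, 0.46 and 0.51 in Ctrl, cKO and gesicle TFs and was called in none. *Serpinh1*, which binds procollagen, differed by 0.04 ± 0.20 (SE), 0.30 ± 0.20 (SE) and 0.16 ± 0.18 (SE), with adjusted p of 0.963, 0.426 and 0.684. *Hyou1*, the hypoxia upregulated protein ORP150, had 0.20, -0.23 and 0.09, and its adjusted p was at least 0.685 in each arm.

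As a share of all counts, the 9 chaperones took 1.16%, 1.15% and 1.15% in the 3 Ctrl libraries in 20% O2 and 1.16%, 1.48% and 1.40% in 1% O2. In cKO TFs the shares were 1.02%, 0.985% and 1.21% in 20% O2 and 1.31%, 1.60% and 1.64% in 1% O2. Gesicle TFs had 1.21%, 1.18% and 1.11% in 20% O2 and 1.41%, 1.60% and 1.61% in 1% O2. The shares did not overlap between O2 levels in cKO and gesicle TFs, and in Ctrl TFs they overlapped through replicate 1.

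**Figure D3:**
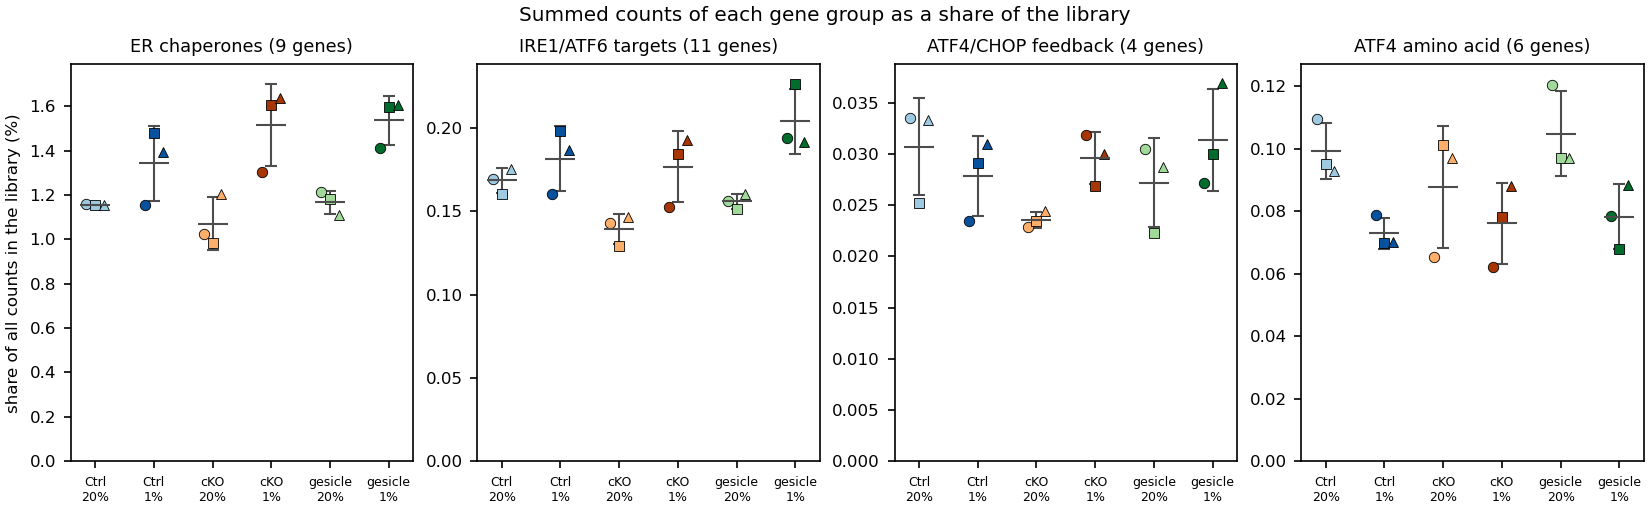
Share of all counts taken by each list of members other than the sensors and transcription factors (y axis, percent of counts) in each library by arm and O2 level. Points show libraries, marker shapes replicates 1 to 3 and bars the mean ± SD of 3 libraries. Chaperones took 1.07% to 1.17% on average in 20% O2 and 1.34% to 1.54% in 1% O2, and the amino acid genes took less on average in 1% O2 in each arm.

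Of the IRE1 and ATF6 targets, *Herpud1*, an ER membrane protein of the degradation complex, had the smallest adjusted p in cKO and gesicle TFs. In Ctrl TFs it was at 174, 146 and 180.1 CPM in 20% O2 and 202, 249 and 243 CPM in 1% O2, a difference of 0.48 ± 0.17 (SE, adjusted p = 0.18). In cKO TFs it was at 117, 154 and 153 CPM in 20% O2 and 206, 279 and 302 CPM in 1% O2, a rise of 0.90 ± 0.17 (SE, adjusted p = 0.0181), and after gesicles at 196, 127 and 153 CPM in 20% O2 and 262, 318 and 331 CPM in 1% O2, a rise of 0.94 ± 0.18 (SE, adjusted p = 0.00918). Every library in 1% O2 was above every one in 20% O2 of its arm. *Creld2*, a small ER-resident protein, was the Ctrl member with the lowest adjusted p. Its level in Ctrl TFs was 73.1, 72.7 and 69.5 CPM in 20% O2 and 103, 109 and 108 CPM in 1% O2, and the difference of 0.58 ± 0.14 (SE, adjusted p = 0.0559) just missed the threshold. The cKO and gesicle TFs had 0.71 and 0.67 (adjusted p = 0.0241 and 0.0158), with no overlap in either arm.

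Other small ER proteins followed with like differences. *Sdf2l1*, a co-chaperone of BiP, was at 34.1, 31.8 and 26.9 CPM in 20% O2 and 45.1, 59.3 and 50.7 CPM in 1% O2 in gesicle TFs, a rise of 0.74 ± 0.19 (SE, adjusted p = 0.0474). It had 0.68 in Ctrl and 0.69 in cKO TFs, with adjusted p of 0.119 and 0.0975, so that similar differences fell on either side of the threshold. *Manf*, a secreted ER-stress factor, rose after gesicles from 167, 134 and 110.1 to 214, 245 and 239 CPM, by 0.76 ± 0.18 (SE, adjusted p = 0.0373), and had 0.41 and 0.64 in the other arms. *Manf* shares 14 exon bases with *Rbm15b* on its own strand, so reads there could be assigned to either gene. It also shares 146 with *Dcaf1* on the opposite strand, where the assignment depends on the strand setting of the counting, which is not stated.

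*Derl3* had the largest log2 difference of all members and the lowest counts. Raw counts in Ctrl TFs were 8, 22 and 14 in 20% O2 and 14, 75 and 58 in 1% O2. The cKO libraries had 2, 19 and 13 and 2, 54 and 78 counts, 2 of them under the floor of 3 counts. Gesicle TFs had 7, 5 and 17 counts in 20% O2 and 40, 63 and 65 in 1% O2, without overlap. The log2 difference there was 3.04 ± 0.72 (SE, adjusted p = 0.0342), against 1.68 ± 0.75 (SE, adjusted p = 0.296) in Ctrl and 2.22 ± 0.78 (SE, adjusted p = 0.149) in cKO TFs, and with so few counts its size is poorly fixed.

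The HSP40 co-chaperones *Dnajb9*, *Dnajb11* and *Dnajc3* had positive differences in each arm, from 0.10 for *Dnajc3* in Ctrl TFs to 0.49 for *Dnajb9* in gesicle TFs, and none was called. The degradation genes *Edem1*, *Syvn1* and *Sel1l*, a lectin for misfolded glycoproteins, the ubiquitin ligase HRD1 and its adaptor, had between -0.17 for *Sel1l* in Ctrl TFs and 0.40 for *Syvn1* in gesicle TFs, and none was called either. Within the list, then, *Herpud1*, *Creld2*, *Sdf2l1*, *Manf* and *Derl3* made up all the calls of edgeR, and the HSP40 and ligase genes had smaller differences.

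Of the sensors and transcription factors, edgeR and DESeq2 called 0 in the 3 arms, and limma voom called 1 lower in Ctrl, 2 higher in cKO and 1 higher in gesicle TFs. At an unadjusted p under 0.05, edgeR had 1, 2 and 1 of the 7, against 2546 and 3141 of 15850 and 2805 of 16174 genes. *Ern1*, the gene of IRE1, was at 19.9, 19.4 and 20.4 CPM in 20% O2 and 6.63, 20.3 and 11.7 CPM in 1% O2 in Ctrl TFs, with -0.62 ± 0.38 (SE, adjusted p = 0.467), and its 3 libraries in 1% O2 ran from a value below all those in 20% O2 to 1 within their range. *Eif2ak3*, the gene of PERK, and *Atf6* also had negative differences in the 3 arms, of -0.21, -0.46 and -0.11 and of -0.61, -0.37 and -0.25, with adjusted p from 0.228 to 0.83. *Xbp1* had positive ones. Its level in gesicle TFs was 249.7, 199 and 209.6 CPM in 20% O2 and 294, 336 and 345 CPM in 1% O2, and the difference of 0.57 ± 0.14 (SE, adjusted p = 0.0394) passed the adjusted p but lay under 1.5-fold. In Ctrl and cKO TFs *Xbp1* had 0.28 and 0.44 (adjusted p = 0.391 and 0.136).

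*Atf4*, which is controlled mainly by translation, was at 129, 109.7 and 121 CPM in 20% O2 and 111, 119.6 and 140.2 CPM in 1% O2 in Ctrl TFs and differed by 0.05 ± 0.15 (SE), 0.18 ± 0.15 (SE) and 0.22 ± 0.17 (SE) in Ctrl, cKO and gesicle TFs. *Atf3*, an early stress factor, lay between 1.42 and 8.27 CPM over all libraries. Its log2 differences ran from 0.28 in Ctrl to 0.69 in gesicle TFs, and its groups overlapped in each arm. For *Ddit3*, the gene of CHOP, the values were -0.33 ± 0.25 (SE), 0.33 ± 0.25 (SE) and -0.03 ± 0.25 (SE), with adjusted p of 0.565, 0.486 and 0.974. Its exons share 68 bases with *Mars* on the opposite strand, and since the strand setting of the counting is not stated, the source of reads there cannot be told apart.

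*Chac1*, a glutathione-degrading enzyme induced through ATF4 and CHOP, was the called gene of the feedback list. Its level was 20.5, 18.99 and 17.3 CPM in 20% O2 and 25.4, 27.8 and 28.4 CPM in 1% O2 in Ctrl TFs, with 0.53 ± 0.20 (SE, adjusted p = 0.222), although the groups did not overlap. In cKO TFs it was at 11.01, 18.4 and 14.1 CPM in 20% O2 and 19.8, 27.99 and 30.9 CPM in 1% O2, a rise of 0.87 ± 0.20 (SE, adjusted p = 0.0459). After gesicles it was at 20.4, 14.4 and 16.6 CPM in 20% O2 and 25.5, 27.5 and 36.3 CPM in 1% O2, a rise of 0.80 ± 0.20 (SE, adjusted p = 0.046). Both adjusted p-values lay just under the threshold. The other 3 genes were called in no arm: *Ppp1r15a*, the GADD34 phosphatase subunit that restarts translation, had -0.22, 0.61 and 0.28, *Trib3*, a pseudokinase that restrains ATF4, had -0.35, 0.42 and 0.26, and *Sesn2*, an inhibitor of mTORC1, had 0.01, -0.11 and 0.02. Replicate 1 of the cKO TFs in 1% O2, the shallowest library, held the highest *Ppp1r15a* of all libraries, at 191, 106 and 96.1 CPM for the group.

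The amino acid genes lay on the other side of zero from the chaperones in Ctrl TFs, where 6 of 6 had negative differences. *Phgdh*, the first enzyme of serine synthesis, was at 359, 348 and 314 CPM in 20% O2 and 257, 218 and 223 CPM in 1% O2 in Ctrl TFs, with -0.54 ± 0.18 (SE, adjusted p = 0.149). In gesicle TFs it was at 441, 367 and 367 CPM in 20% O2 and 255, 211 and 285 CPM in 1% O2, with a log2 difference of -0.64 ± 0.17 (SE, adjusted p = 0.0498), the only member called lower and just under the threshold. In both arms all 3 libraries in 1% O2 lay under all 3 in 20% O2. In cKO TFs *Phgdh* was at 241, 389 and 316 CPM in 20% O2 and 199.6, 268 and 269.7 CPM in 1% O2, where the groups overlapped through replicate 1 of the 20% O2 group, with -0.35 ± 0.18 (SE, adjusted p = 0.286).

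*Asns* was at 341, 249 and 297 CPM in 20% O2 and 164, 202 and 222 CPM in 1% O2 in Ctrl TFs, without overlap, and its difference was -0.59 ± 0.26 (SE, adjusted p = 0.287). In cKO and gesicle TFs it had -0.11 and -0.19, with overlapping groups. *Psat1*, the next enzyme of serine synthesis, had -0.20, -0.16 and -0.69. *Shmt2* and *Mthfd2*, the mitochondrial one-carbon enzymes, had between -0.23 and 0.09, and *Slc7a11* had between -0.22 and 0.13. Of these 5 genes, edgeR called 0 in the 3 arms. *Shmt2* shares 32 exon bases with *Ndufa4l2* on the opposite strand.

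**Figure D4:**
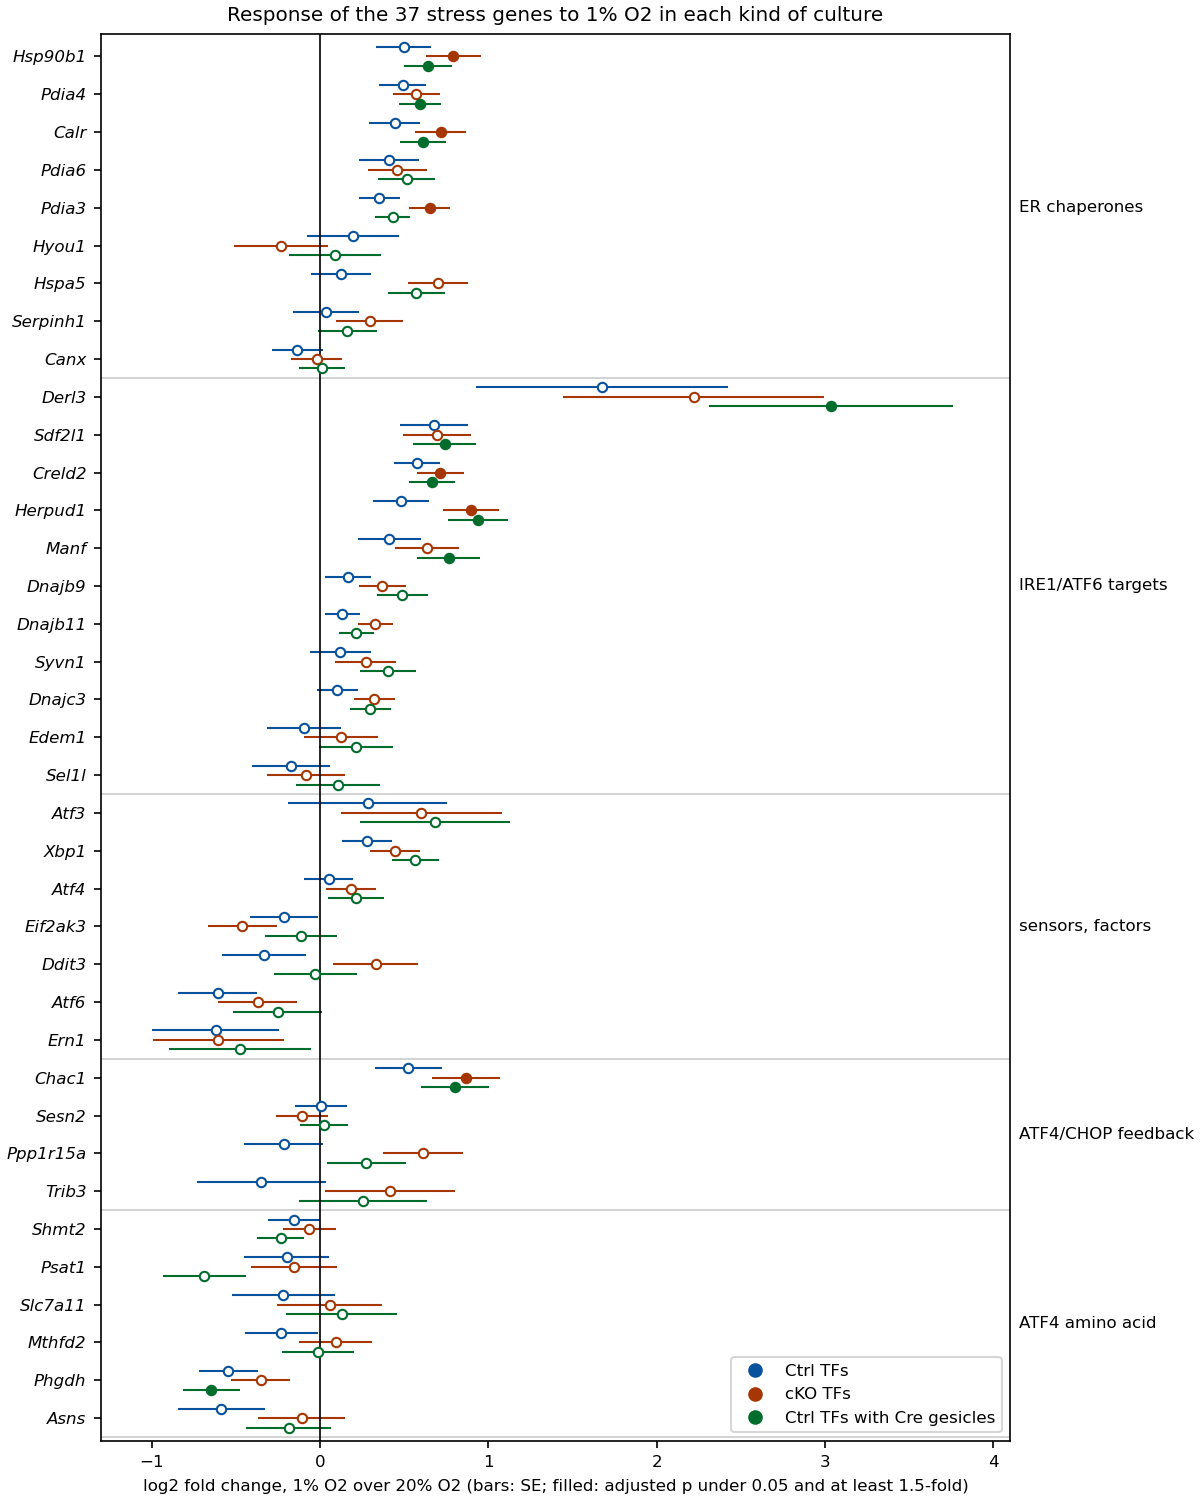
Log2 difference between 1% and 20% O2 (x axis, with bars for ± SE) for the 37 members (rows, grouped by list) in Ctrl, cKO and gesicle TFs, where each point rests on 3 libraries per O2 level and filled points passed the adjusted p and 1.5-fold. Chaperones and IRE1 and ATF6 targets lie mostly to the right of zero, up to 3.04 for Derl3, and amino acid genes mostly to the left.

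Set beside the promoter sequences shown above, the 11 members with an ER stress element of either form had median log2 differences of 0.41, 0.70 and 0.57 in Ctrl, cKO and gesicle TFs. The 23 members with a window and neither form had -0.15, 0.18 and 0.16. Of the 11, 4 were called higher in cKO and 5 in gesicle TFs, and of the 23, 2 and 3. Of all genes tested, 2.1% and 2.41% were called in either direction. All 11 belong to the 2 ER lists, while no sensor, feedback or amino acid gene with a window held either form. The contrast therefore cannot be told apart from that between the lists. The 4 genes with a C/EBP-ATF core had medians of 0.38, 0.74 and 0.74, and among them *Herpud1* and *Chac1* were called in cKO and gesicle TFs, while *Slc7a11*, with 2 cores, was not. These are descriptions of the chosen members, since the same lists were built from known ER stress genes.

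Wider lists were read for the same pathways without the members. Of 46 further ER folding, trafficking and degradation genes, edgeR called 0 in each comparison. For O2 these had medians of 0.12, 0.10 and 0.11 in Ctrl, cKO and gesicle TFs. At an unadjusted p under 0.05 there were 7, 10 and 10 genes, against 2546 and 3141 of 15850 and 2805 of 16174 genes tested. In cKO TFs DESeq2 called 1 and limma voom 4. Of 42 further ATF4 and amino acid genes, 2 were called higher and 3 lower in Ctrl TFs, against 1.88% of all genes tested. The amino acid transporter *Slc38a2* rose by 0.71 (adjusted p = 0.0493), as did *Ddit4*, an inhibitor of mTORC1, by 0.82 (adjusted p = 0.0491). *Cth*, which makes cysteine, had -1.74 (adjusted p = 0.0155), *Slc1a5*, a glutamine transporter, -0.66 (adjusted p = 0.0393), and *Wars*, a tRNA synthetase, -0.63 (adjusted p = 0.0472). *Wars* was beyond the 4 genes that the naming rule allows and was added after its values were seen. With the replicate block, whose numbers paired the Ctrl libraries, *Slc1a5* lost its call (adjusted p = 0.0706) and the other 4 kept theirs.

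The median of the wider ATF4 list was -0.29 in Ctrl TFs, with 12 genes above 0 and 30 below, and -0.08 and -0.14 in cKO and gesicle TFs. In cKO TFs edgeR called *Slc38a2* alone, at 0.76 (adjusted p = 0.0343), against 2.1% of all genes. There DESeq2 called 3 higher and limma voom 4 higher and 4 lower. In gesicle TFs *Fgf21*, a stress hormone, was called at 2.06 (adjusted p = 0.0167) and *Cth* at -1.20 (adjusted p = 0.0289), against 2.41% of all genes. These calls rested on single libraries to differing degrees. With each library of the comparison left out in turn, *Slc38a2*, *Slc1a5*, *Wars* and *Ddit4* kept their call in Ctrl TFs in 0 of 6 fits and *Cth* in 2 of 6, *Slc38a2* kept it in cKO TFs in 1 of 6, and in gesicle TFs *Cth* kept it in 0 of 6 and *Fgf21* in 4 of 6.

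Whether the O2 response differed between arms was tested as the interaction. For cKO against Ctrl TFs, 0 of 37 members were called, against 0% of all genes. At an unadjusted p under 0.05 there were 2 members, against 367 of 15850 genes. DESeq2 and limma voom also called 0 members. The estimates ran from -0.43 to 0.83 with SE of 0.15 to 1.06, and 34 of 37 lay above 0, with a median of 0.22 against -0.04 over all genes. *Ppp1r15a* had the largest, 0.83 ± 0.33 (SE) (unadjusted p = 0.028), and *Hspa5* had 0.58 ± 0.25 (SE) (unadjusted p = 0.0406), both with an adjusted p of 1. For gesicle against Ctrl TFs, again 0 were called, against 0% of all genes, 0 had an unadjusted p under 0.05, and 33 of 37 estimates lay above 0, with a median of 0.20 against -0.01 over all genes. Thus 6 calls in cKO and 10 in gesicle TFs against 0 in Ctrl TFs are not a shown difference between arms. Both interactions use the same 6 Ctrl libraries, so their estimates are not independent of each other.

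Replicate 1 stood apart in 1% O2 in Ctrl and cKO TFs. In replicate 1 of the Ctrl TFs in 1% O2, 34 of 37 members were at the lowest level of the group, including 9 of 9 chaperones, and replicate 1 of the cKO TFs in 1% O2 was also lowest for 34 of 37, while that of the gesicle TFs was lowest for 24. With any single library left out, that one included, 0 members were called for O2 in Ctrl TFs and 0 in both interactions. Within a group, the highest library was 1.17 times the lowest at the median member in Ctrl TFs in 20% O2 and 1.52 times in cKO TFs in 20% O2. The endothelial markers, of which only *Tek* was read above 1 CPM, lay lower in 1% O2 in each arm, with overlap in Ctrl and cKO TFs, and had a summed level of 27.3 to 45.5 CPM in Ctrl TFs in 20% O2 and 11.4 to 27.6 in 1% O2, 37.2 to 76.5 and 16.8 to 40.0 in cKO TFs, and 25.4 to 60.9 and 17.4 to 25.2 in gesicle TFs. The skeletal muscle markers, of which *Des* and *Acta1* were above 1 CPM, lay higher in 1% O2 without overlap in cKO and gesicle TFs, at 12.4 to 18 CPM in 20% O2 and 18.6 to 24.1 in 1% O2 in cKO TFs and at 21 to 30.6 and 37.4 to 43.5 in gesicle TFs, and overlapped in Ctrl TFs, at 24.4 to 47.7 and 26.5 to 35.7. The part of either list in the members' differences was not tested. The endothelial gene *Pecam1* had at most 9 counts and *Emcn* at most 2.

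The comparison of cKO with Ctrl TFs asks what the *Scx*-Cre deletion changed at a given O2 level. In 20% O2, 0 of 37 members were called (edgeR), against 0.347% of all genes. At an unadjusted p under 0.05 there were 6 members, against 2264 of 15850 genes. DESeq2 called 2 lower, *Atf6* and *Slc7a11*, and limma voom called 4 lower, *Ern1*, *Atf6*, *Ppp1r15a* and *Slc7a11*. All 3 cKO libraries lay under all 3 Ctrl libraries for 10 members, against 10.3% of all genes, and the median difference was -0.23, against 0.03 over all genes. In 1% O2, 0 were called, against 0.0379% of all genes, and 6 had an unadjusted p under 0.05, against 2658 of 15850 genes. DESeq2 called 0 there and limma voom 3. At both O2 levels these tools also called more genes than edgeR over all genes, as given at the end. Their member counts are therefore not read as particular to the members. In 1% O2, 2 members lay apart in this direction, against 15.2% of all genes. There the median was 0.07, against 0.00 over all genes.

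Averaged over both O2 levels, 3 members were called, all lower in cKO TFs, against 3.78% of all genes, and the median member difference was -0.08, against 0.02 over all genes. None was called with counts summed per replicate number, as given below. *Slc7a11* was at 19.3, 14.4 and 13.1 CPM in Ctrl and 5.27, 6.11 and 7.82 CPM in cKO TFs in 20% O2, and at 9.0, 18.3 and 12.8 and 3.70, 7.49 and 8.15 CPM in 1% O2. Every cKO library lay under every Ctrl library of the same O2 level, and the averaged difference was -1.15 ± 0.22 (SE, adjusted p = 0.0187). *Atf6* was at 68.9, 68.7 and 81.2 CPM in Ctrl and 52.4, 29.9 and 41.03 CPM in cKO TFs in 20% O2, without overlap, and at 31.8, 61.1 and 50.1 and 27.3, 31.5 and 35.5 CPM in 1% O2, where the groups overlapped. Its averaged difference was -0.72 ± 0.17 (SE, adjusted p = 0.0361).

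*Edem1* was at 212, 182 and 223 CPM in Ctrl and 155, 86.5 and 138 CPM in cKO TFs in 20% O2, which did not overlap, and at 154, 216 and 206 and 105, 139 and 166 CPM in 1% O2, which did. Its averaged difference was -0.60 ± 0.16 (SE, adjusted p = 0.0486). The study's methods give 3 mice per genotype, so the 12 libraries stand for 6 mice. The averaged test nevertheless treated each library as a separate unit. Which libraries share a mouse is not given, and the sums take equal numbers of an arm as 1 mouse. With counts summed over the O2 levels per number, 0 members were called, at adjusted p of 0.0943 for *Slc7a11*, 0.226 for *Atf6* and 0.198 for *Edem1*. With the replicate block, *Slc7a11* kept its call (adjusted p = 0.0244), and *Atf6* and *Edem1* did not (adjusted p = 0.061 and 0.0637). In this comparison the block gave Ctrl and cKO TFs of equal number a shared term, although these are different mice. It therefore does not account for mice used at both O2 levels, and nothing is drawn from the kept call. Leaving out single libraries, *Slc7a11* kept its call in 11 of 12 fits and lost it without replicate 1 of the Ctrl TFs in 20% O2 (adjusted p = 0.0579), and *Atf6* and *Edem1* each kept it in 2 of 12. The number of members called was 0 without that library, 4 without replicate 1 of the Ctrl TFs in 1% O2 or of the cKO TFs in 20% O2, and 1 without any other single library.

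**Figure D5:**
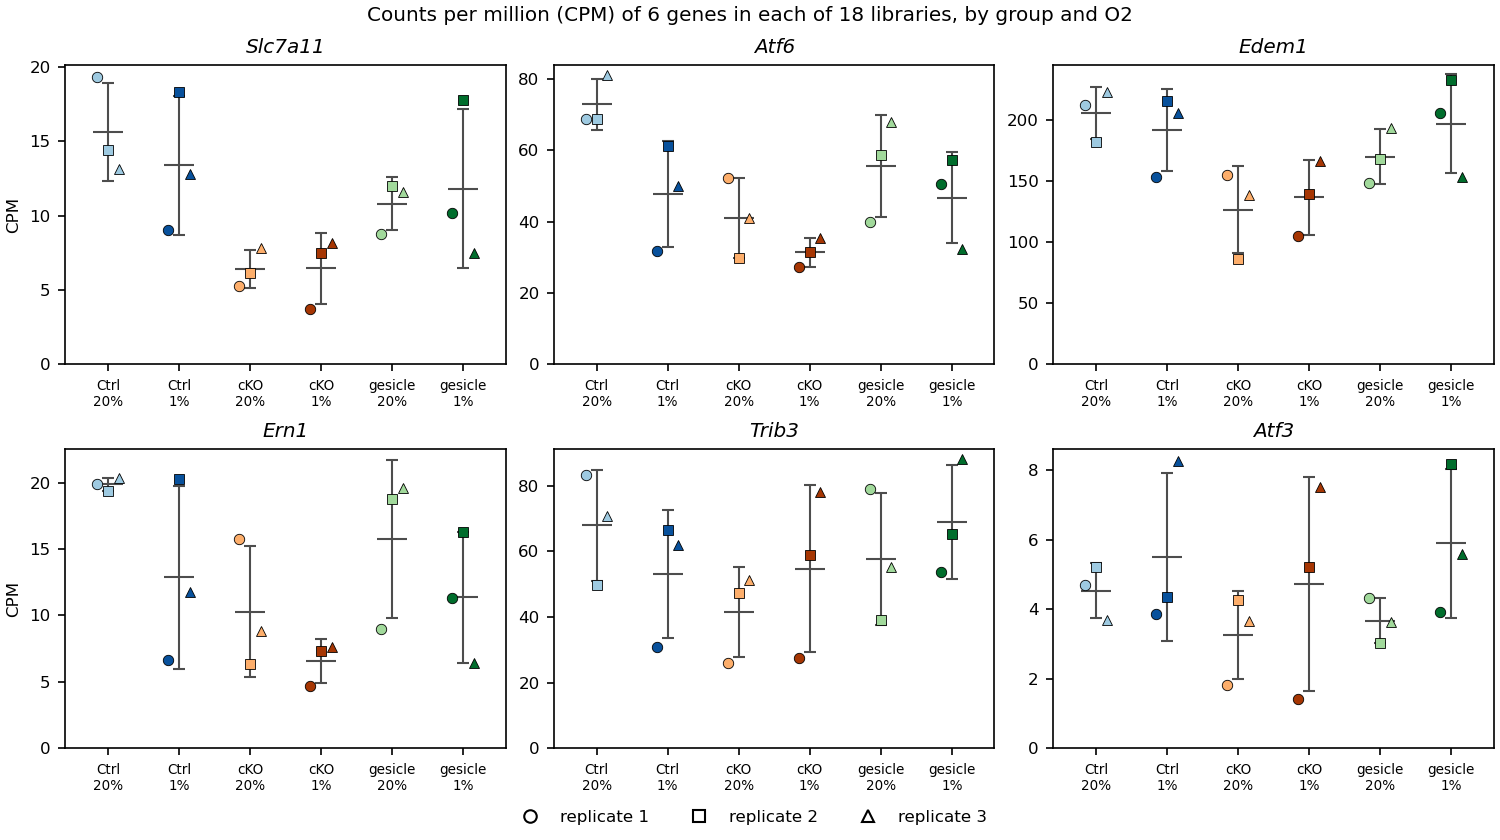
Levels of selected members (y axis, CPM from 0) in Ctrl, cKO and gesicle TFs in 20% and 1% O2, with points for libraries, marker shapes for replicates 1 to 3 and bars for the mean ± SD of 3 libraries. Slc7a11 lies lower in cKO than in Ctrl TFs at both O2 levels, from 3.70 to 8.15 CPM in cKO libraries against 9.0 to 19.3 CPM in Ctrl libraries.

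The sensors *Ern1* and *Eif2ak3* had averaged differences of -0.95 ± 0.27 (SE, adjusted p = 0.0598) and -0.49 ± 0.14 (SE, adjusted p = 0.0634), and *Dnajc3* had -0.32 ± 0.09 (SE, adjusted p = 0.05). By contrast, the chaperones had a median of 0.04 and ranged from -0.35 for *Hyou1* to 0.13 for *Pdia3*. In the wider ATF4 list, 2 genes were called lower, against 3.78% of all genes called in either direction. *Slc1a4*, a neutral amino acid transporter, had -0.72 (adjusted p = 0.0217) and *Xpot*, a tRNA exporter, -0.76 (adjusted p = 0.0356). They kept the call in 7 and 4 of 12 fits with a library left out. Both lost it with counts summed per replicate number (adjusted p = 0.125 and 0.181), and *Xpot* also with the replicate block (adjusted p = 0.0503) and with Xist as a covariate (adjusted p = 0.0603). For the wider ER list, 0 of 46 genes were called by edgeR in the averaged comparison. At an unadjusted p under 0.05 there were 14, against 4525 of 15850 genes. DESeq2 called 2 and limma voom 1, all lower, and over all genes both tools also called more than edgeR. The smooth muscle and pericyte markers, 3 of 3 of which were read, also lay lower in cKO TFs in 20% O2, with summed levels of 29.3 to 37.8 CPM against 86.6 to 144 CPM in Ctrl TFs, and 26.0 to 41.9 against 39.9 to 86.6 CPM in 1% O2. The 8 tendon fibroblast markers summed to 4252 to 9359 CPM in cKO and 10606 to 12635 CPM in Ctrl TFs in 20% O2, and overlapped in 1% O2, at 5111 to 8412 and 5619 to 13033 CPM. The skeletal muscle markers, of which *Des* and *Acta1* were above 1 CPM, summed to 12.4 to 18 CPM in cKO and 24.4 to 47.7 CPM in Ctrl TFs in 20% O2, and to 18.6 to 24.1 and 26.5 to 35.7 CPM in 1% O2. The part of these lists in the members' differences was not tested.

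Gesicles were compared with untreated Ctrl TFs at each O2 level. In 20% O2, 0 members were called by edgeR, against 0.0247% of all genes, 0 had an unadjusted p under 0.05, and DESeq2 and limma voom called 0. In 1% O2, 0 were called, against 0% of all genes, and DESeq2 and limma voom called 0. At an unadjusted p under 0.05 there were 3 members, against 324 of 16174 genes. The median member difference was 0.00 in 20% O2 and 0.18 in 1% O2, against 0.01 and -0.01 over all genes. *Slc7a11*, called lower in the averaged cKO comparison, had -0.53 ± 0.33 (SE) and -0.18 ± 0.33 (SE) after gesicles in 20% and 1% O2, where the libraries held 8.74, 12.02 and 11.6 and 10.2, 17.8 and 7.46 CPM. In 20% O2 these lay under all 3 Ctrl libraries, and in 1% O2 they overlapped with them. The adjusted p was 1 for both. *Atf6* had -0.39 ± 0.26 (SE) and -0.03 ± 0.26 (SE), and *Edem1* -0.27 ± 0.22 (SE) and 0.04 ± 0.22 (SE), also with an adjusted p of 1.

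The O2 calls in cKO and gesicle TFs depended on single libraries. Of the 6 in cKO TFs, 0 were left without replicate 1 of the 20% O2 group and without replicate 2 or 3 of the 1% O2 group, 1 without replicate 3 of the 20% O2 group, 7 without replicate 1 of the 1% O2 group and 13 without replicate 2 of the 20% O2 group. Of the 10 in gesicle TFs, 0 were left without replicate 2 in 20% O2 or replicate 3 in 1% O2, 1 without replicate 3 in 20% O2 or replicate 2 in 1% O2, 6 without replicate 1 in 20% O2, and 11 were called without replicate 1 in 1% O2. *Herpud1* was kept in 4 of 6 fits in gesicle TFs, and no member that was called changed sign in any of them.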

How the data were processed

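RNA-seq of tail TFs was measured in 18 libraries. Per the labels and the study's methods, the authors trimmed reads with cutadapt 4.8, checked them with FastQC 0.11.8, mapped them to GRCm38 with STAR 2.7.8a and deposited RSEM 1.3.3 estimated counts per gene, rounded to whole numbers (100% of values) and not normalized. RSEM shares reads between similar genes, so values of overlapping genes are uncertain, and the strand setting is not given in the sources used here. The 3 replicates of a group came from 3 mice per genotype according to the study's methods, and libraries of 1 number may share a mouse.

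From these counts, low genes were removed by filterByExpr, libraries were scaled by TMM and each group received a coefficient of its own in edgeR 4.0.16, whose quasi-likelihood test was used. The 12 libraries without gesicles were fitted together (15850 genes), and comparisons with gesicle TFs came from a model of all 18 (16174 genes). A gene was called at a Benjamini-Hochberg adjusted p under 0.05 over all genes tested and a fold of at least 1.5. CPM used TMM-scaled library sizes. The SE is the log2 difference divided by the square root of F. Library totals of 6857558 to 51806453 counts set the precision, and a floor of 3 counts covers counting error only. The procedure was also run on simulated counts. These held no effect of mouse or replicate number, so they do not show how it performs where libraries share such effects.

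The members and lists were chosen with earlier results of these data known. All members are described, with values per library, for some in 1 arm only, for those called in at least 1 comparison. From the wider lists, up to 4 called genes with the largest absolute log2 difference were named per list and comparison. Values per library of Hspa5, Ern1, Atf4 and Asns were added after their values were seen. Xbp1 and Ppp1r15a, which edgeR called in no comparison, also have values per library in 1 arm. Replicate numbers were read as pairs where the correlation of same-numbered deviations from the group means was over 0.1 for all 3 numbers, which held for O2 in Ctrl TFs (0.32 to 0.59) and for gesicle against Ctrl TFs in 20% O2 (0.40 to 0.59) and 1% O2 (0.27 to 0.36). The block changed no member call in these comparisons, and of the wider lists' calls in them 1 was lost, Slc1a5. Alternatives were DESeq2 1.42.0, RLE scaling, inclusion of low-count genes, no fold minimum, the replicate block, other sets of libraries in the fit, Xist as a covariate, counts summed per replicate number and each library left out. The replicate block had a term per arm and number for O2 and the interactions. For comparisons between arms it had a term per number, shared by the arms. After seeing the data, limma 3.58.1 voom with sample quality weights and offsets for GC content and exon length (splines with 4 degrees of freedom) were added. Motifs were matched exactly by a script in Python 3.11.15, and R 4.3.3 was used for the tests.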

Additional observations from a re-analysis of the deposited data

How the results depend on the processing

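Members called for O2 in Ctrl TFs went from 0 to 1 with DESeq2, to 1 with only the 6 libraries compared in the fit, to 5 with limma voom and to 1 with offsets for gene length and GC content. In cKO TFs the 6 went to 0 with only the 6 libraries compared and to 11 with voom, and ran from 0 to 13 with single libraries left out. In gesicle TFs the 10 went to 1 with the 6 libraries compared and ran from 0 to 11 with single libraries left out. For cKO against Ctrl TFs in 20% O2 the 0 became 2 with DESeq2, 1 without the filter on low counts and 4 with voom, and in 1% O2 the 0 became 3 with voom. Averaged over O2, the 3 became 1 with Xist as a covariate, 1 with the offsets and 0 with counts summed per replicate number, and ran from 0 to 4 with single libraries left out. The cause of these shifts was not tested. No result reversed. Over 29 gene results, which take called members and called genes of the wider lists together, the call was kept in 179 of 225 other settings. With a library left out it was kept in 61 of 204 fits.

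With the replicate block, members called averaged over O2 went from 3 to 1, and all genes called from 599 to 358. In 1% O2, all genes called for cKO against Ctrl TFs went from 6 to 2. In comparisons whose numbers did not pair the libraries, the block called 9 members for O2 in cKO and 10 in gesicle TFs, and the correlations were 0.03 to 0.47 for O2 in cKO TFs and -0.17 to -0.02 for cKO against Ctrl TFs in 20% O2.

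Over all genes, the O2 count in Ctrl TFs was 298 and became 694 with DESeq2, 1543 with voom, 469 with the offsets and 116 to 261 with a library left out. In cKO TFs 333 became 889 with DESeq2, 511 without the filter, 84 with the 6 libraries compared, 2718 with voom and 98 to 1373 with a library left out. In gesicle TFs 390 became 728 with DESeq2, 120 with the 6 libraries, 746 with voom and 148 to 346 with a library left out. For cKO against Ctrl TFs in 20% O2, 55 became 432 with DESeq2, 281 without the filter, 87 with all 18 libraries, 1 with the 6 libraries, 1585 with voom, 131 with the offsets and 1 to 154 with a library left out. In 1% O2, 6 became 288, 111, 14, 0, 1274 and 11 in the same order, 15 with Xist and 0 to 6 with a library left out. Averaged over O2, 599 became 1251 with DESeq2, 1190 without the filter, 330 with Xist, 25 with summed counts, 1684 with voom and 137 to 1531 with a library left out. With the offsets, the averaged split of 174 higher and 425 lower became 234 higher and 303 lower. For gesicle against Ctrl TFs in 20% O2, 4 became 46 with DESeq2, 23 without the filter, 1 with the 6 libraries, 11 with voom and 0 to 2 with a library left out. The interaction of cKO and O2 went from 0 to 2 with DESeq2 and 0 to 1 with a library left out. Depth limits Derl3 most, with 2 counts in 2 libraries. Replicates number 3 per group, so small differences such as those of the HSP40 genes are not resolved.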
